A study of Mus musculus with 16 samples.

Results

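The mouse mitochondrial genome carries 37 genes, and all of them were taken here by their symbols, which begin with mt-. They were 37 of the 57180 genes in the count files: 13 messenger RNAs, 2 ribosomal RNAs and 22 transfer RNAs. The lungs were from mouse fetuses at embryonic day E14.5, described in the series as male, and 16 poly(A)-selected libraries were sequenced. The 4 groups held 4 libraries each. C57BL/6J (B6) and A/J dams received either corn oil, the control, or BMS493 by mouth at 3.75 µg per g per day from E9.5 to E14.5. BMS493 acts as an inverse agonist on every retinoic acid receptor type and so lowers transcription that these receptors drive. No transgene or mutation separated the groups, which differed in inbred strain and in what the dam was given. Litters were not named, and p-values below measure the spread between these libraries, which may include litter mates.

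The mitochondrial genome is a small circle present in many copies per cell. Both of its strands are copied into long precursors, which are cut at the transfer RNAs into separate transcripts. Its messenger RNAs encode core subunits of respiratory complexes I, III and IV and of the ATP synthase (complex V), and all other parts of these complexes are encoded in the nucleus. Its ribosomal and transfer RNAs serve the ribosome inside the organelle. Most of the messenger RNAs carry short poly(A) tails, whereas mature transfer RNAs do not.

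Part of this genome also lies in the nuclear genome as inserted copies. The sequences below are shown because they bear on what the counts of these messenger RNAs can mean. The first 60 bases of mt-Nd3, a complex I subunit, and of Gm28438, its annotated copy on chromosome 1, are given 5′ to 3′ with the single base that differs between them in capitals:

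mt-Nd3: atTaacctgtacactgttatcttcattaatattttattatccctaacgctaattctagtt

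Gm28438: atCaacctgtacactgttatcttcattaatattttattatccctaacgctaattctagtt

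The substitution is T3C, counted from the first base of mt-Nd3, and it is the 1 difference in 345 aligned bases (99.71% identity). For mt-Atp6, a subunit of the ATP synthase, the copy Gm10925 is identical over all 678 aligned bases, and the first 60 of each read:

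mt-Atp6: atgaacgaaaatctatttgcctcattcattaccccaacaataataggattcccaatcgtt

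Gm10925: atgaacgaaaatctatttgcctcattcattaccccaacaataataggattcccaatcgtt

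These sequences are from the GENCODE M21 transcripts. In that annotation 9 nuclear genes shared at least 100 windows of 50 bases with a mitochondrial messenger RNA. Those on chromosome 1 follow each other in the order of their mitochondrial counterparts: Gm29216 (mt-Co1), Gm28661 (mt-Co2), Gm10925 (mt-Atp6), Gm28437 (mt-Co3), Gm28438 (mt-Nd3), Gm10222 (mt-Nd4l) and Gm28439 (mt-Nd4). Gm13340 (mt-Co1) and Gm13341 (mt-Co2) lie on chromosome 2. Every 50-base window of mt-Co2 was also present in another annotated transcript, on either strand. The share was 99.5% for mt-Atp6, 99.9% for mt-Co3, 98.0% for mt-Nd3 and 98.8% for mt-Nd4l. It was 62.2% for mt-Nd4, 51.1% for mt-Co1, 8.19% for mt-Nd2 and 7.61% for mt-Nd5. It was 1.04% for mt-Rnr2, and no window of mt-Nd1, mt-Cytb, mt-Nd6, mt-Rnr1 or mt-Atp8 was shared. None of the 9 copies belongs to mt-Nd2, mt-Nd5 or mt-Rnr2, whose shared windows lie in other transcripts.

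Each library held 20105760 to 31838104 read pairs, of which 15207539 to 24146224 were assigned to a gene. Lung epithelial and mesenchymal markers were counted in every library, among them Nkx2-1, Sftpc, Tbx4 and Foxf1. Summed marker CPM of other cell types ranged over the 16 libraries from 1665 to 3994 for erythroid cells, 58.1 to 107.9 for cardiac muscle, 855 to 1407 for endothelium and 1.30 to 13.6 for hepatocytes. CPM are counts per 1000000 assigned counts after scaling between libraries. The heart markers Nppa and Myl2 were at 0 in some libraries. In bulk RNA, fewer cells of a type and less RNA per cell cannot be told apart.

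The 37 genes together took 0.339% to 1.46% of the assigned counts. In B6 controls the share was 0.807%, 0.971%, 0.922% and 1.07% in replicates 1 to 4. In B6 lungs exposed to BMS493 it was 1.25%, 0.886%, 0.339% and 1.12%. In A/J controls it was 1.24%, 1.34%, 1.08% and 1.46%, and in A/J lungs exposed to BMS493 it was 1.10%, 0.973%, 1.14% and 0.995%. All 4 A/J controls lay above the highest B6 control, by a small margin for replicate 3, and the BMS493 groups of the strains overlapped. As a percentage of all read pairs the controls overlapped too, with A/J replicate 3 at 0.791% and B6 replicate 4 at 0.809%. Among B6 lungs the mean ± SD was 0.943% ± 0.109 in controls and 0.899% ± 0.402 with BMS493, and among A/J lungs it was 1.28% ± 0.161 in controls and 1.05% ± 0.0807 with BMS493 (n = 4 each). Without replicate 3 the B6 group with BMS493 was at 1.09% ± 0.184 (n = 3), above the B6 control mean in place of below it.

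**Figure D1:**
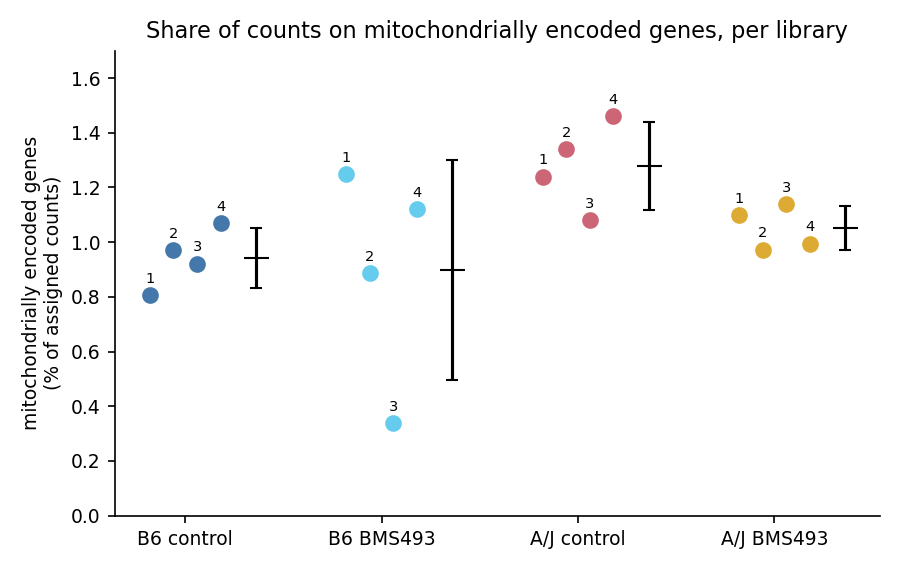
Share of assigned counts on the 37 mitochondrially encoded genes, in percent, for each library (points, labelled with the replicate number) with the group mean and SD beside them. B6 BMS493 replicate 3, at 0.339%, lies below the 15 other libraries, and the A/J controls lie between 1.08% and 1.46%.

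B6 BMS493 replicate 3 stood apart. It had the lowest CPM of all 16 libraries for each of the 14 tested mitochondrial genes, beside 17.3% of all 17276 genes tested. The untested mt-Atp8 and mt-Nd4l were lowest there too, but on 1 and 3 counts. Its level relative to the mean of the other 3 libraries of its group ranged over the 14 tested genes from 0.185 for mt-Tp, the transfer RNA for proline, to 0.725 for mt-Rnr2, the large ribosomal RNA. Among the abundant messenger RNAs the ratio was 0.221 for mt-Nd4, 0.257 for mt-Nd2, 0.273 for mt-Nd5, 0.290 for mt-Cytb, 0.309 for mt-Nd1 and 0.347 for mt-Co1. Thus the low level was shared by the genes but unequal between them. Of the counts on the 13 messenger RNAs, this library had 41.8% on mt-Co1 against 35.1% to 37.3% in the other 15, and 5.28% on mt-Nd4 against 6.45% to 7.99%. mt-Nd6, the 1 messenger RNA read from the opposite strand, held 2.48% against 1.13% to 1.75%.

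Nuclear genes for mitochondrial proteins moved both ways in the same library. Of 242 such genes tested, 65 were below all other 15 libraries, 26.9% beside 17.3% of all 17276 genes tested, and 57 were above, 23.6% beside 16%. The library thus stood apart across the whole table and not only in these genes. Among subunits of the ATP synthase, Atp5mc2 was at 41.5 CPM against 80.1 to 110.6 elsewhere and Atp5f1e at 168.3 against 75.1 to 99.0. Summed over lists, regulators of mitochondrial biogenesis were at 1147.7 CPM, below the 1158.5 to 1233.1 of the other 15 libraries. Complex V subunits reached 4336, above the 3510 to 3952 of the others, as did complex II subunits, at 656.4 against 581.1 to 637.4, and genes for transcription and replication of the mitochondrial genome, at 574.9 against 495.5 to 551.6. Complex I subunits, at 1920.4, were within 1747 to 1956, complex IV subunits, at 1313, within 1161 to 1401, and proteins of the mitochondrial ribosome, at 2825, within 2610 to 3031. Of the 8 lung mesenchyme markers, Col1a1, a fibrillar collagen, was above all other libraries, at 5613 CPM against 1406 to 3212. The transcription factors Tbx4 (200.4 against 226.7 to 279.0), Tbx5 (132.2 against 161.6 to 188.3) and Foxf1 (118.5 against 150.5 to 215.1) were below all of them, and the other 4 were within. The library also had 108 CPM of summed heart markers against 58.1 to 106. Its erythroid sum of 3169 was within the range of the others. The part of these values in the low mitochondrial counts was not tested. Values without this library are given beside the main results below.

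**Figure D2:**
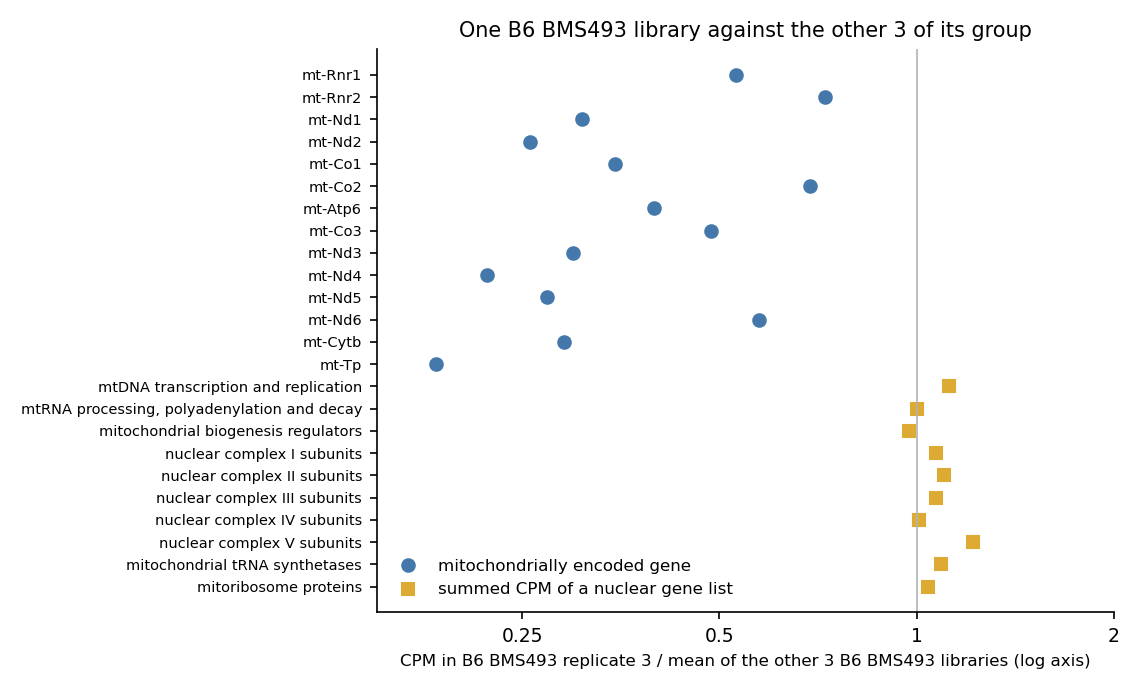
CPM in B6 BMS493 replicate 3 divided by the mean of the other 3 B6 BMS493 libraries, on a log axis, for the 14 tested mitochondrial genes (circles) and for the summed CPM of 10 lists of nuclear genes for mitochondrial functions (squares). The mitochondrial genes lie between 0.185 and 0.725 and the nuclear lists between 0.975 and 1.22.

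Per kilobase of gene, mt-Co1, the catalytic subunit of complex IV, was the most counted of the 37 genes, at 2384 ± 544 CPM per kb (mean ± SD over 16 libraries). It was followed by mt-Nd1 of complex I at 1802 ± 446, mt-Cytb, the complex III subunit, at 1585 ± 382, mt-Nd2 at 881 ± 241 (complex I), mt-Nd5 at 595 ± 162 and mt-Nd4 at 544 ± 141. Each of these exceeded the next in all 16 libraries, except that mt-Nd5 exceeded mt-Nd4 in 13 of 16, so their order was not fixed. mt-Nd6 came next at 291 ± 76.2 CPM per kb and was below mt-Nd4 in 15 of 16 libraries. With strand ignored, mt-Nd6 had 1229 to 4753 counts per library. Counted by strand, it had 1058 to 4852 in the first column and 1154 to 5217 in the second. The column without strand thus left out fragments that the strand columns give to mt-Nd6. The place of this gene in the order was taken in the column without strand only. The ribosomal RNAs mt-Rnr1 and mt-Rnr2 were at 138 ± 40.2 and 84.0 ± 24.4 CPM per kb, with mt-Tp between them at 123 ± 41.1. mt-Rnr1 exceeded mt-Tp in 11 of 16 libraries.

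The remaining 6 messenger RNAs formed a low group. mt-Co2 (22.3 ± 8.62 CPM per kb) and mt-Co3 (17.4 ± 7.87) encode core subunits of complex IV, and mt-Atp6 (11.9 ± 3.96) and mt-Atp8 (1.35 ± 1.04) encode subunits of the ATP synthase. mt-Nd3 (6.13 ± 2.74) and mt-Nd4l (1.13 ± 0.541) encode subunits of complex I. These 6 lie side by side in the mitochondrial genome, between mt-Co1 and mt-Nd4. Together they held 0.278% to 0.814% of messenger RNA counts, and the other 7 held 99.2% to 99.7%. Of the 6, 5 have nearly all of their length in a nuclear copy, as shown by the sequences above, while mt-Atp8 shared no window with an annotated copy and overlaps mt-Atp6 in the mitochondrial genome. Read pairs placed at more than one site were kept in a line of their own, 2.81% to 4.06% of read pairs, with no gene named. The counts of the 5 genes with copies thus hold only fragments that were placed at one site and are no measure of their full level. The same limit holds in part for mt-Nd4 and mt-Co1, with 62.2% and 51.1% of their windows shared, and for their place in the order above. How far placement at one site sets the low level of the 6 genes was not tested.

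**Figure D3:**
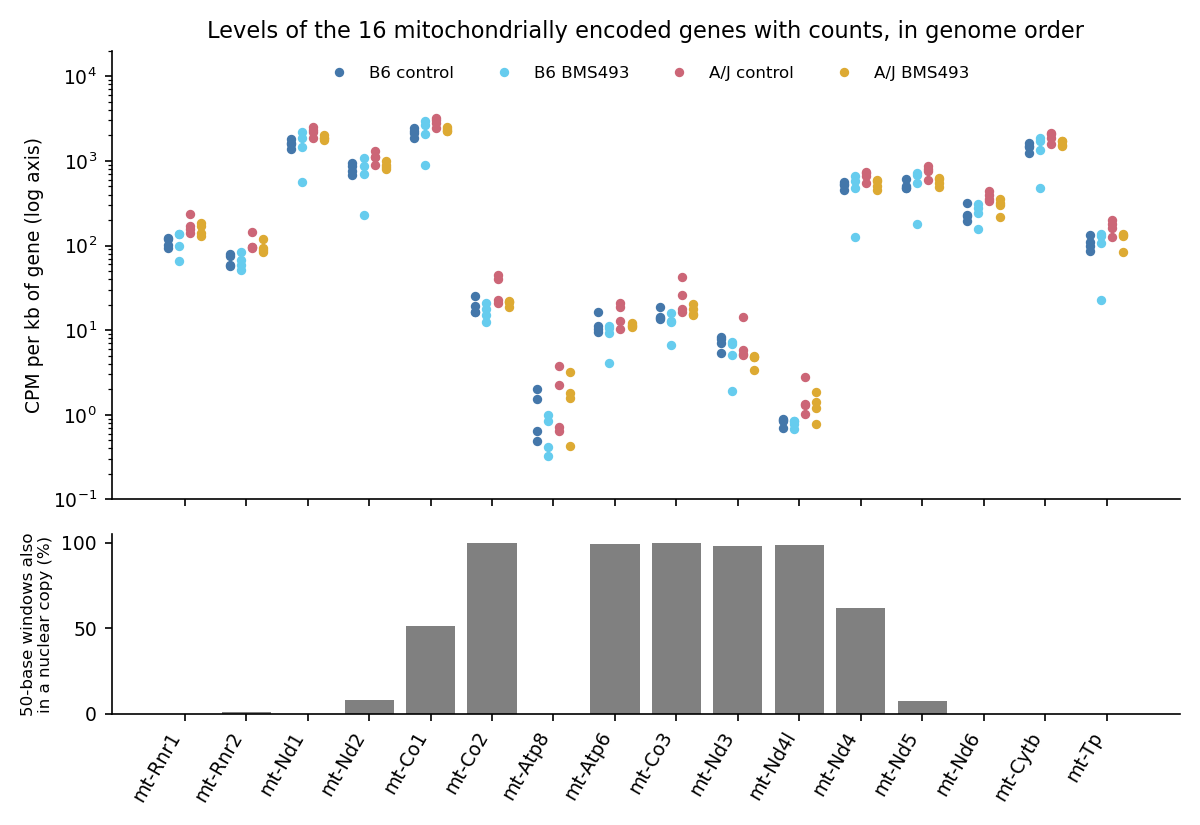
Upper panel: CPM per kb (log axis) of the 16 mitochondrially encoded genes with counts, in genome order, 1 point per library, coloured by group. Lower panel: the share of 50-base windows of each gene that also occur in another annotated transcript, the nuclear copies among them. The run from mt-Co2 to mt-Nd4l lies more than 10-fold below its neighbours mt-Co1 and mt-Nd4.

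BMS493 exposure was compared with corn oil within each strain. Of the 37 genes, 14 had enough counts to be tested: 11 messenger RNAs, both ribosomal RNAs and mt-Tp. mt-Atp8 (1 to 17 counts per library), mt-Nd4l (3 to 18) and 21 transfer RNAs were not tested.

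In B6, none of the 14 was called at an adjusted p under 0.05 by edgeR's quasi-likelihood test, against 0.423% of all 17276 genes tested. None had an unadjusted p under 0.05 in edgeR's test, beside 1573 of all 17276 genes, and DESeq2 also called 0. The median log2 fold change of the 14 was -0.11, beside 0.01 over all genes. For mt-Co1, CPM was 2842, 3440.3, 3311 and 3746 in the controls and 4633, 3229.6, 1379 and 4069 with BMS493. The BMS493 libraries held both the highest values and the lowest, so the groups overlapped, with a log2 fold change of -0.00 ± 0.27 (SE). mt-Cytb was at 1429, 1706, 1652 and 1856 CPM in controls and at 2126, 1524, 544 and 1984 with BMS493. mt-Nd1 had 1316, 1575, 1529 and 1722 CPM in controls and 2110.2, 1409, 545 and 1766 with BMS493. In each of these genes 2 BMS493 libraries exceeded all controls and replicate 3 lay below all of them.

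Without replicate 3, the median of the 14 genes in B6 turned from -0.11 to 0.16 on the log2 scale and 8 genes changed sign. Then 10 were higher with BMS493 and 4 lower, from -0.17 for mt-Atp6 to 0.33 for mt-Nd5, and none was called (lowest adjusted p = 0.532), against 0.46% of all genes. No direction of a BMS493 effect in B6 can therefore be given for these genes.

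In A/J, the log2 fold changes of all 14 genes were negative, from -0.77 to -0.17 with a median of -0.34, beside -0.00 over all genes, and none was called, against 0.486% of all genes. DESeq2 called 0 as well. By edgeR's quasi-likelihood test over all genes, the unadjusted p was 0.0145 for mt-Co2 and 0.0326 for mt-Nd3, and above 0.05 for the other 12. Of all 17276 genes tested, 1076 had an unadjusted p under 0.05 in that test. For mt-Co1, CPM was 4337, 4732, 3762 and 4899 in A/J controls and 3708, 3474, 3854 and 3507 with BMS493. Controls were higher on average, but control replicate 3 lay within the BMS493 range (log2 fold change -0.29 ± 0.27, adjusted p = 0.998).

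The other complex IV and V genes of A/J showed uneven controls. mt-Co2 had 15.7, 14.4, 30.6 and 27.7 CPM in A/J controls and 14.7, 12.7, 14.8 and 15.3 with BMS493, which is overlapping, with a log2 fold change of -0.62 ± 0.23 (adjusted p = 0.541). mt-Co3 had 14, 12.9, 33.4 and 20.3 CPM in controls and 15.8, 11.7, 13.8 and 12 with BMS493. mt-Atp6 had 8.83, 6.97, 14.3 and 12.7 CPM in controls and 7.33, 7.74, 8.37 and 7.56 with BMS493. For each of the 3 genes, control replicates 3 and 4 were the high ones, and replicates 1 and 2 lay within or near the BMS493 range. mt-Nd3 alone among the 14 had groups that did not overlap, with BMS493 lower (1.19 to 1.71 CPM against 1.76 to 5.01), a pattern that 2.84% of all genes tested shared. With B6 BMS493 replicate 3 left out of the fit, the standard error for mt-Co1 fell from 0.27 to 0.11, and still 0 of the 14 were called in A/J, against 0.687% of all genes.

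The complex I messenger RNAs of A/J showed the same order of groups. mt-Nd5 was at 1386, 1455, 1088 and 1568 CPM in controls and at 1159, 899.6, 1128 and 1012 with BMS493, a log2 fold change of -0.39 ± 0.32 (adjusted p = 0.986). mt-Nd1, mt-Nd2 and mt-Nd4 had log2 fold changes of -0.25, -0.33 and -0.32. mt-Nd6 had 174, 206, 182 and 227 CPM in controls and 156, 111, 185 and 165 with BMS493. For mt-Nd5, 2 BMS493 libraries were above the lowest control, and for mt-Nd6, 1 was. The ribosomal RNAs had the values nearest 0, at -0.18 ± 0.22 for mt-Rnr1 and -0.17 ± 0.19 for mt-Rnr2.

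The difference between the strains in the BMS493 effect was tested as an interaction. It was negative in all 14 genes, from -0.43 to -0.07 on the log2 scale, and none was called (lowest adjusted p = 0.999), against 0.00579% of all genes. None had an unadjusted p under 0.05 in edgeR's test, beside 636 of all 17276 genes, and DESeq2 called 0. Without B6 BMS493 replicate 3 the values ranged from -0.72 for mt-Nd5 to -0.22 for mt-Rnr2 and none was called either (lowest adjusted p = 0.984).

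Between the strains, control lungs of A/J had higher mean CPM than those of B6 for each of the 14 tested genes, though few differences passed the test. All 14 log2 fold changes were positive, from 0.10 for mt-Nd3 to 0.77 for mt-Co3, with a median of 0.50 beside 0.01 over all genes. Of these, 2 were called, mt-Rnr2 and mt-Co2, against 16.9% of all genes. mt-Rnr2 had 90.4, 124, 91.8 and 118 CPM in B6 controls and 152, 152, 148 and 229 in A/J controls. The groups did not overlap, and A/J replicate 4 was well above the other 3 (log2 fold change 0.68 ± 0.19, adjusted p = 0.0258). That library also had the highest share of read pairs outside any gene, 8.68%. mt-Rnr1, the small ribosomal RNA, had 90.3, 117, 96.6 and 115 CPM in B6 controls and 164.5, 150.4, 135 and 222 in A/J controls, again with no overlap, and missed the threshold (0.68 ± 0.22, adjusted p = 0.0561).

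Of the 14 genes, 5 had A/J controls all above the B6 controls: mt-Rnr1, mt-Rnr2, mt-Nd1, mt-Co1 and mt-Nd6. Among all genes tested 10.7% had non-overlapping groups in that direction. mt-Co1 was at 2842 to 3746 CPM in B6 controls and 3762 to 4899 in A/J controls, so that the groups nearly touched, with a log2 fold change of 0.41 ± 0.27 (adjusted p = 0.348). mt-Nd1 was at 1316 to 1722 in B6 controls and 1797 to 2402 in A/J controls (0.46 ± 0.29, adjusted p = 0.331). mt-Nd6 was at 116, 120.1, 102 and 165 CPM in B6 controls and at 174, 206, 182 and 227 in A/J controls (0.65 ± 0.21, adjusted p = 0.0518). For mt-Cytb and mt-Nd5, A/J control replicate 3 lay inside the B6 range and the other 3 above it.

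The number called depended on B6 BMS493 replicate 3, which belongs to neither control group but sets the spread in a fit of all libraries. Without it, 9 of 14 genes were called higher in A/J controls, against 19.7% of all genes: mt-Rnr1, mt-Rnr2, mt-Nd1, mt-Co1, mt-Co2, mt-Nd5, mt-Nd6, mt-Cytb and mt-Tp. The fold changes hardly moved (mt-Co1 0.40 ± 0.11, adjusted p = 0.0208, and mt-Cytb 0.39 ± 0.11, adjusted p = 0.0263). A fit of the 8 control libraries alone also called 9, against 22.6% of all genes, with mt-Nd4 in place of mt-Co2 (for mt-Co2, adjusted p = 0.131).

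Single control libraries mattered as well. mt-Rnr2 lost its call without B6 control replicate 1 (adjusted p = 0.0723), B6 control replicate 3 (0.0728) or A/J control replicate 4 (0.0714). mt-Co2 had 11.1, 13.1, 11.3 and 17.2 CPM in B6 controls against the A/J values given above, so 2 of 4 A/J controls overlapped the B6 range (0.75 ± 0.23, adjusted p = 0.0324). Its call was lost without any one of B6 control replicates 1 (adjusted p = 0.0894), 2 (0.0740) and 3 (0.0908) or A/J control replicates 3 (0.0864) and 4 (0.101).

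Beside these differences, endothelial markers were lower in A/J: 5 of 7 markers were called lower in controls (6 of 7 without B6 BMS493 replicate 3), beside 16.9% of all genes called, and 7 of 7 with BMS493, beside 20.0%, with summed CPM of 1209 to 1323 in B6 controls and 871 to 1051 in A/J controls. Lung mesenchyme markers summed to 4206 to 4449 CPM in B6 controls and 2581 to 3442 in A/J controls, with 1 of 8 called lower and 0 higher. Lung epithelium markers summed to 1542 to 1766 and 1328 to 1500.5 CPM in the same groups, with 2 of 9 called lower and 0 higher. Summed erythroid CPM was 2039 to 2735 in B6 controls and 2341 to 3925 in A/J controls. The share of read pairs assigned to genes was 75.1% to 76.4% in B6 controls and 71.7% to 75.8% in A/J controls, and the share placed at more than one site was 3.14% to 3.29% and 3.94% to 4.06%. The part of these in the mitochondrial values was not tested.

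**Figure D4:**
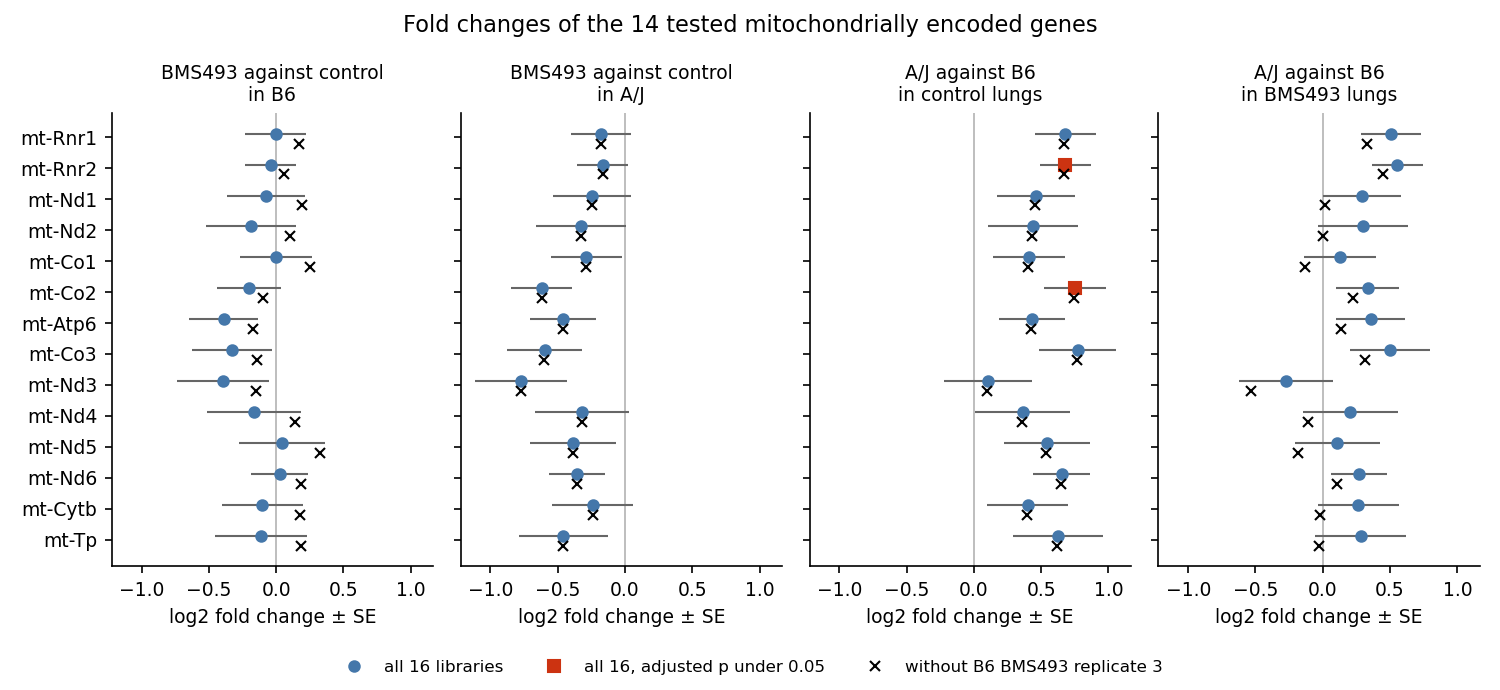
Log2 fold changes ± SE of the 14 tested mitochondrially encoded genes in 4 comparisons. Circles and squares are fits of all 16 libraries, squares mark an adjusted p under 0.05 (mt-Rnr2 and mt-Co2 in control lungs), and crosses are fits without B6 BMS493 replicate 3. In B6 the crosses lie to the right of the circles, and in BMS493 lungs the crosses scatter about 0.

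In lungs exposed to BMS493, none of the 14 genes was called between the strains, against 20.0% of all genes. The log2 fold changes ran from -0.27 for mt-Nd3 to 0.55 for mt-Rnr2, with 13 of 14 positive and a median of 0.29 beside 0.00 over all genes. mt-Rnr1 and mt-Rnr2 had an unadjusted p under 0.05 in edgeR's test, beside 5424 of all 17276 genes tested. DESeq2 called 1 gene, mt-Rnr2. mt-Rnr2 was at 106.5, 91.8, 80.4 and 134 CPM in B6 and at 138, 132, 187 and 149 in A/J with BMS493, with 1 overlapping value (0.55 ± 0.19, adjusted p = 0.0576). None of the 14 had A/J values all above B6 values, a pattern found in 8.74% of all genes. Without B6 BMS493 replicate 3, 7 genes were higher and 7 lower in A/J, with a median of 0.01. mt-Co1 then had a log2 fold change of -0.13 ± 0.12, while the ribosomal RNAs were at 0.32 ± 0.19 and 0.45 ± 0.20 (lowest adjusted p among the 14 = 0.146, against 19.1% of all genes called). Whether the strain difference itself differed between control and BMS493 lungs is the interaction given above, in which no gene was called.

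Counts of the ribosomal RNAs were small beside those of the messenger RNAs in these poly(A)-selected libraries. Their sum was 1.91% to 4.34% of the messenger RNA counts, with the highest value in B6 BMS493 replicate 3. The mean ± SD was 2.29% ± 0.195 in B6 controls and 2.70% ± 1.11 in B6 lungs exposed to BMS493, or 2.15% ± 0.252 without replicate 3 (n = 3). Among A/J lungs it was 2.71% ± 0.387 for controls and 2.94% ± 0.248 after BMS493 (n = 4 each). mt-Co1 held 36.3% ± 0.416 of messenger RNA counts in B6 controls, and in A/J it held 35.7% ± 0.466 without and 35.8% ± 0.746 with BMS493. In B6 lungs exposed to BMS493 it held 38.3% ± 2.28, or 37.2% ± 0.114 without replicate 3. mt-Cytb held 18.1% ± 0.215 in B6 controls, 17.6% ± 0.221 in A/J controls and 18.2% ± 0.246 in the A/J lungs exposed to BMS493. In B6 after BMS493 it held 17.3% ± 0.68, or 17.6% ± 0.489 without replicate 3.

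A/J control replicate 3 differed from the rest in the 6 low messenger RNAs. It had the highest CPM of the 16 libraries for each of them, and they held 0.814% of its messenger RNA counts, against at most 0.528% in the other libraries. mt-Nd3, for example, was at 5.01 CPM against 1.76 to 2.03 in the other A/J controls. The 9 nuclear copies together took 134.3 counts per 1000000 assigned there, and 77.9, 70.4 and 123.0 in A/J control replicates 1, 2 and 4, so that replicate 4 was nearly as high. The part of these copies in the mitochondrial values was not tested.

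The nuclear copy of mt-Nd3 had a larger fold difference between the strains than any mitochondrial gene tested. Gm28438 is no member of the mitochondrial genome and is named because its values stood out. It was counted 22, 30, 26 and 25 times in B6 controls and 45, 18, 9 and 24 times after BMS493, and in A/J it was counted 170, 210, 232 and 304 times in controls and 215, 173, 153 and 189 times after BMS493. The strains did not overlap. The log2 fold change of A/J over B6 was 3.09 ± 0.29 in controls (adjusted p = 6.34e-08) and 2.75 ± 0.30 with BMS493 (adjusted p = 4.78e-07). With B6 BMS493 replicate 3 left out it was 3.08 ± 0.27 (adjusted p = 2.97e-08) and 2.55 ± 0.30 (adjusted p = 2.26e-06). mt-Nd3 itself had 36, 59, 56 and 44 counts in B6 controls and 47, 60, 10 and 31 after BMS493, and 42, 42, 110 and 31 in A/J controls and 36, 27, 36 and 34 after BMS493. On the CPM scale its values overlapped in both comparisons of the strains. Of the counts on the pair, Gm28438 took 23.1% to 48.9% in B6 libraries and 67.8% to 90.7% in A/J libraries.

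For the other copies whose share in the pair was computed, the shares overlapped between the strains. No share was computed for Gm13340, Gm29216 and Gm28439. In the chromosome 1 run, Gm28661 took 32.0% to 46.9% of its pair with mt-Co2 in B6 and 34.9% to 43.9% in A/J. Gm10925 took 57.7% to 63.8% of its pair with mt-Atp6 in B6 and 53.7% to 62.8% in A/J, and Gm28437 took 43.2% to 49.7% of its pair with mt-Co3 in B6 and 36.7% to 47.9% in A/J. Gm10222 took 40.0% to 64.3% of its pair with mt-Nd4l in B6 and 50% to 73.1% in A/J, on at most 21 counts per library. Gm13341 of chromosome 2, which differs from mt-Co2 at 14 aligned bases and by gaps, took 24.9% to 33.8% of its pair in B6 and 25.7% to 36.6% in A/J. The overlapping pairs thus held both identical and differing sequences. In their own levels, Gm10222 (log2 fold change 1.35 ± 0.46), Gm13340 (0.90 ± 0.28), Gm28661 (0.75 ± 0.22), Gm29216 (0.73 ± 0.22) and Gm28439 (0.72 ± 0.20) were also called higher in A/J controls by edgeR (adjusted p = 0.0154 to 0.0422). Gm13341, Gm28437 and Gm10925 were not called in controls, where 16.9% of all genes were called. With BMS493 Gm28438 alone of the 9 copies was called, where 20.0% of all genes were. The base that the reads of each strain carry at position 3 of mt-Nd3 was not analysed here. Since the pair differs at 1 of 345 aligned bases, the counts alone do not tell which sequence of the pair the fragments came from. This limit holds for the strain values of mt-Nd3 and of Gm28438 alike. When the counts of each copy were added to its mitochondrial gene, a setting chosen after the data were seen, the log2 fold change of mt-Nd3 in A/J over B6 became 1.87 ± 0.25 in controls (adjusted p = 1.53e-05) and 1.68 ± 0.26 with BMS493 (adjusted p = 7.87e-05), from 0.10 and -0.27. With that B6 library, BMS493 replicate 3, left out, these were 1.86 ± 0.19 (adjusted p = 6.58e-08) and 1.44 ± 0.21 (adjusted p = 1.88e-05). Since Gm28438 held most of the pair's counts in A/J, these values follow from the difference in counts placed on Gm28438 and are no separate result. mt-Nd4l with its copy was at 1.20 ± 0.37 in controls (adjusted p = 0.0233). Without B6 BMS493 replicate 3, the added copies gave 10 called of 15 mitochondrial genes tested in controls, against 19.7% of all genes. mt-Co1 and mt-Nd4 stayed within 0.01 of their values in control lungs.

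**Figure D5:**
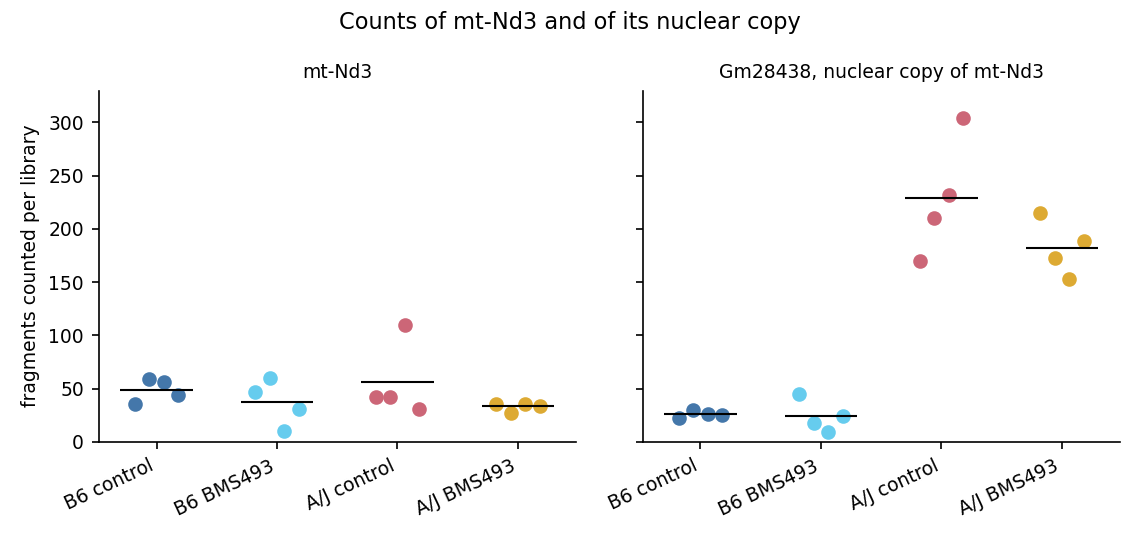
Fragments counted per library for mt-Nd3 (left) and for its nuclear copy Gm28438 (right), with the mean of each group as a line. Counts of mt-Nd3 overlap between the strains, and counts of Gm28438 are 9 to 45 in B6 and 153 to 304 in A/J.

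Among the 22 transfer RNAs, mt-Tp was the only one with counts when strand was ignored, at 23 to 281 per library. It is read from the opposite strand to most of the genome and stands at the edge of the control region, and its sequence is shown because it is the only transfer RNA counted when strand is ignored:

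mt-Tp: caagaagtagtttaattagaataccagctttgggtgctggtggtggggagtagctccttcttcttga

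mt-Tp had 5.77, 8.96, 7.47 and 6.56 CPM in B6 controls and 13.6, 12, 8.33 and 10.7 in A/J controls. Of the A/J controls, 3 were above all B6 controls (0.63 ± 0.33, adjusted p = 0.235, and 0.62 ± 0.16 with adjusted p = 0.00814 without B6 BMS493 replicate 3). The other 21 were at 0 in all 16 libraries when strand was ignored, which does not show that they lack reads. When strand was ignored, fragments that touched more than 1 gene, on the same strand or on both, went to an ambiguous line, 4.26% to 4.68% of read pairs. Counted by strand, 10 transfer RNAs had at least 1 count, 7 of them among the 8 read from the same strand as mt-Tp, and 12 stayed at 0 in every column. The kit did not preserve strand, since 51.0% to 52.0% of counts fell on the first strand, so a transfer RNA and a precursor of the opposite strand cannot be told apart.

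In the counts by strand, examined after their values were seen, mt-Tq, the transfer RNA for glutamine, which lies between mt-Ti and mt-Tm of the other strand, was higher in A/J. In the first strand column it had 27, 30, 13 and 18 counts in B6 controls and 15, 14, 2 and 16 after BMS493, and in A/J it had 37, 71, 27 and 68 in controls and 43, 55, 63 and 57 after BMS493. The strains overlapped in 1 A/J control and not at all with BMS493. The log2 fold change was 1.16 ± 0.34 in controls (adjusted p = 0.0202) and 2.05 ± 0.37 with BMS493 (adjusted p = 0.000209). In the second strand column it was 1.20 ± 0.29 (adjusted p = 0.00365) and 2.02 ± 0.31 (adjusted p = 1.77e-05). Without B6 BMS493 replicate 3, mt-Tq was at 1.16 ± 0.30 (adjusted p = 0.00563) and 1.78 ± 0.34 (adjusted p = 0.000334) in the first column, and at 1.19 ± 0.26 (adjusted p = 0.000904) and 1.77 ± 0.30 (adjusted p = 4.1e-05) in the second. These columns called 4 and 5 of 18 tested mitochondrial genes in controls, against 13.9% and 13.7% of all genes, and 1 and 2 with BMS493, against 16.9% and 16.6%. Leaving out B6 BMS493 replicate 3, they called 12 and 12 of 18 in controls, against 16.9% and 16% of all genes. mt-Ts1 (1.16 ± 0.33, adjusted p = 0.0163) was called in the first column only and mt-Ty (1.83 ± 0.46, adjusted p = 0.00562) in the second only, both in controls. mt-Te, the transfer RNA for glutamate, had 10 to 121 and 11 to 123 counts in the columns and was not called in either, but in the first column without B6 BMS493 replicate 3 it was called in controls (0.72 ± 0.23, adjusted p = 0.0282).

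Nuclear genes that serve the mitochondrial genome were followed in 10 lists with 248 distinct genes, 242 of them tested. BMS493 changed 1 of 242 in each strain, 0.413%, near the background of 0.423% in B6 and 0.486% in A/J. That gene was Rarb, a retinoic acid receptor that is itself a target of retinoic acid signalling and was listed among the regulators of mitochondrial biogenesis. It fell from 8.38 ± 0.759 to 4.19 ± 1.82 CPM in B6 (log2 fold change -1.02 ± 0.21, adjusted p = 0.0190) and from 9.09 ± 0.967 to 3.10 ± 0.624 in A/J (-1.56 ± 0.21, adjusted p = 9.11e-05). In B6 without BMS493 replicate 3 it was at -1.33 ± 0.18 (adjusted p = 0.000351), and it was again the 1 gene called in each strain. The 242 genes had a median log2 fold change of -0.03 in B6 and 0.00 in A/J.

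Among the genes that copy and express the mitochondrial genome, neither Tfam nor Polrmt was called in any of the 5 comparisons over all libraries, where 16.9% of all genes were called between the strains in controls and 20.0% with BMS493. Tfam, which packages the mitochondrial genome and starts its transcription, was at 65.3 ± 0.852 CPM in B6 controls and 70.0 ± 12 after BMS493, and at 74.6 ± 5.21 in A/J controls and 72.8 ± 4.39 after BMS493. Tfam was, without B6 BMS493 replicate 3, called higher in A/J in controls (0.18 ± 0.06, adjusted p = 0.0248) and with BMS493 (0.18 ± 0.06, adjusted p = 0.0450). Polrmt, the mitochondrial RNA polymerase, was at 59.3 ± 1.91, 59.6 ± 7.38, 59.4 ± 5.6 and 62.8 ± 4.16 CPM in the same groups. Tfb1m, which modifies the small ribosomal RNA, rose from 5.84 ± 0.711 CPM in B6 controls to 9.15 ± 1.24 in A/J controls (0.64 ± 0.16, adjusted p = 0.00499), and it was the 1 of 20 transcription and replication genes called there. Lrpprc, which stabilises mitochondrial messenger RNAs, was higher in A/J controls, at 121 ± 6.61 against 101 ± 2.92 CPM (0.25 ± 0.07, adjusted p = 0.0197). With BMS493 Lrpprc was at 111 ± 15.2 in B6 and 109.5 ± 5.78 in A/J. Slirp, the partner of Lrpprc, was not called in any comparison. Of the 24 tested genes for processing and decay, 2 were called in control lungs, Lrpprc and Tfb1m, and 0 in the other comparisons. Leaving out B6 BMS493 replicate 3 added Nsun4 and Rexo2 in BMS493 lungs, 1 higher and 1 lower in A/J. Ppargc1a, a coactivator of mitochondrial gene programmes, was at 7.21 ± 0.936 CPM in B6 controls and 8.01 ± 1.35 in A/J controls and was not called in any comparison. Of 19 such regulators tested, 2 were called between the strains with BMS493: Ppargc1b, a related coactivator, was higher in A/J (6.88 ± 1.77 against 4.22 ± 0.538 CPM, 0.71 ± 0.18, adjusted p = 0.00589), and Pparg, a nuclear receptor of fat cells, was lower (0.654 ± 0.406 against 2.29 ± 0.878 CPM, -1.80 ± 0.37, adjusted p = 0.000991). Both were also called without B6 BMS493 replicate 3, and Pprc1 was then called higher as well.

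Nuclear subunits of the respiratory complexes differed between the strains in single genes. Across the 242 tested genes of all lists, 8 were higher and 4 lower in A/J controls, 4.96% in all beside 16.9% of all genes, and 13 were higher and 3 lower with BMS493, 6.61% beside 20.0%. Without B6 BMS493 replicate 3 the count in controls was 11 higher and 11 lower, 9.09% beside 19.7%, and with BMS493 17 higher and 4 lower, 8.68% beside 19.1%. Of 37 complex I genes, Ndufb10 was lower in A/J controls (-0.26 ± 0.07, adjusted p = 0.00895). Ndufs1, Ndufa3 and Ndufb7 were called there too without B6 BMS493 replicate 3, for 1 higher and 3 lower in all. Over all libraries, Ndufa6, Ndufa10 and Ndufab1 were higher in A/J with BMS493 by 0.20 to 0.29 on the log2 scale. These 3 lost their calls without B6 BMS493 replicate 3 (adjusted p = 0.129, 0.0738 and 0.118). Cox7a2l, which takes part in joining complexes III and IV, was the 1 of 15 complex IV genes called over all libraries, and it was lower in A/J in both comparisons: 100.1 ± 3.25 against 147 ± 3.79 CPM in controls (-0.55 ± 0.07, adjusted p = 3.02e-06) and 98.3 ± 6.64 against 151 ± 19.6 with BMS493 (-0.62 ± 0.07, adjusted p = 5.07e-07). Uqcrb of complex III was higher in A/J controls (0.30 ± 0.10, adjusted p = 0.0317) and Atp5me of complex V was higher in A/J with BMS493 (0.41 ± 0.14, adjusted p = 0.0481). None of the 4 complex II genes was called over all libraries. The complex IV genes Cox5b, Cox6a1 and Cox6b2 were also called lower in A/J controls without B6 BMS493 replicate 3, and in the same fit Sdhb of complex II was higher in A/J with BMS493. For complex V that fit added Atp5f1e, lower in A/J controls, and Atp5mc3, higher in A/J with BMS493.

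The proteins of the mitochondrial ribosome were the longest list, with 79 genes tested. In A/J controls 4 were higher and 2 lower, where 16.9% of all genes were called, and with BMS493 7 were higher and 1 lower, where 20.0% were called. Without B6 BMS493 replicate 3 the counts were 5 and 3 in controls and 9 and 1 with BMS493, where 19.7% and 19.1% of all genes were called, while BMS493 itself changed 0 in either strain. Mrps30 was higher in A/J in both comparisons, with 32.3 ± 2.86 against 24.8 ± 0.340 CPM in controls (0.38 ± 0.08, adjusted p = 0.00192) and 31.5 ± 0.371 against 24.1 ± 2.80 with BMS493 (0.39 ± 0.08, adjusted p = 0.00147). Mrpl27 was lower in A/J in both, at 15.2 ± 1.53 against 26.0 ± 0.881 CPM in controls (-0.78 ± 0.10, adjusted p = 1.14e-06) and 15.3 ± 0.926 against 27.1 ± 3.20 with BMS493 (-0.83 ± 0.10, adjusted p = 4.06e-07). Mrpl10 and Mrpl16 were higher and Mrpl55 lower in A/J controls, by 0.24, 0.30 and -0.34 on the log2 scale. Mrpl41 and Mrpl49 were higher in A/J with BMS493 by 0.43 and 0.34 on the log2 scale. Median log2 fold changes of the list were 0.03 in controls and 0.08 with BMS493, beside 0.01 and 0.00 over all genes. Of the 22 genes that charge mitochondrial transfer RNAs, Wars2 was higher in A/J controls (0.32 ± 0.11, adjusted p = 0.0443) and Kars1, which also serves the cytosol, with BMS493 (0.22 ± 0.06, adjusted p = 0.0153, and 0.15 ± 0.06 with adjusted p = 0.0520 without B6 BMS493 replicate 3). Without that library Yars2 was called higher in A/J with BMS493.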

How the data were processed

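The values are counts per gene as the authors deposited them, in the gene-count layout of STAR. FastQC, cutadapt, STAR and GRCm39 are named per the submitters' processing notes, with versions not given in the sources used here. The column that ignores strand was used. Lines that name no gene were left out. Gene symbols, lengths and transcripts came from GENCODE M21 (51884 of 57180 identifiers matched, holding 98.9% of counts), which is of another build, so no coordinates are given. Genes passing edgeR's filterByExpr (17276) were scaled by TMM and tested over all 16 libraries by the quasi-likelihood test in edgeR 4.0.16 (R 4.3.3) with Benjamini-Hochberg adjustment, called at 0.05, and the script was tested on simulated data. CPM used the same scaling. Depth limits the low messenger RNAs, some at fewer than 10 counts. The members and lists were chosen with earlier results of these data known. Named genes are all mt- genes, up to 3 called genes per direction, list and comparison, and Tfam, Polrmt, Lrpprc, Slirp and Ppargc1a. Alternatives were other scalings, filters, tools (DESeq2 1.42.0), strand columns, library sizes, covariates and leaving out each library. A library was left out only in comparisons that use its group, except that B6 BMS493 replicate 3 was left out in all. Replicate numbers did not pair the samples, since correlations of deviations between libraries of the same number ran from -0.147 to 0.145. Replicates of a group differed by more than counting noise in all 24 pairs (mean chi-square per gene 3.58 to 31.7 over genes with at least 25 counts in the pair).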

Additional observations from a re-analysis of the deposited data

Results flagged for a closer look

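A sample far from the other 3 of its group was looked for in 60 sets of 4 libraries, the 14 tested genes and the mitochondrial share in each group, by the gap to the nearest library divided by the group's range. Chance alone marks about 1 in 20 such sets, and 5 were marked. The gap of mt-Rnr2 in A/J controls was 0.957 of the range, with replicate 4 at 229 CPM and the others at 148 to 152. For mt-Nd3 in A/J controls it was 0.918, with replicate 3 at 5.01 CPM and the others at 1.76 to 2.03, and for mt-Nd3 in A/J with BMS493 it was 0.919, with replicate 2 at 1.19 CPM and the others at 1.67 to 1.71. For mt-Tp in A/J with BMS493 it was 0.914, with replicate 4 at 5.69 CPM and the others at 8.75 to 9.04. For mt-Co3 in B6 controls it was 0.842, with replicate 4 at 14.8 CPM and the others at 10.6 to 11.2. No value of B6 BMS493 replicate 3 was marked by this measure.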

How the results depend on the processing

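No mt- gene was called for BMS493 in B6, for BMS493 in A/J or for the difference between strains under any alternative run. For A/J against B6 in control lungs, 2 were called in the fit of all libraries, 4 with DESeq2, 1 with no filter on low counts, 4 with a mean CPM of at least 1, 9 with only the libraries compared, 4 and 5 with the first and second strand columns, 4 with nuclear copies added, and 0 with the library size set to the sum of the 13 mt- messenger RNAs, a construction that removes any change they share. Leaving out 1 control library gave 0 to 3. Leaving out B6 BMS493 replicate 3, a setting chosen, like the added nuclear copies, after the data were seen, gave 9. The other BMS493 libraries were not left out for this comparison. Also without it, the strand columns called 12 and 12 of 18 and the added copies 10 of 15. For A/J against B6 in BMS493 lungs, 0 were called in the fit of all libraries, 1 with DESeq2, 1 with only the libraries compared, 1 and 2 with the first and second strand columns and 1 with nuclear copies added, and 0 to 1 without 1 library. Of all genes in BMS493 lungs, 20.0% were called in the fit of all libraries and 16.9% and 16.6% in the strand columns. Shares over all genes are not given for the other settings. With a replicate block, 3 were called in control lungs and 1 in BMS493 lungs, but the numbers do not pair the samples. The log2 fold change of mt-Nd3 in BMS493 lungs, -0.27 and not called, became 1.68 with nuclear copies added and 1.44 with that library also left out, as adding Gm28438 must give. Other changes of sign were between values that were not called. Nuclear mitochondrial genes called for BMS493 in B6 rose from 1 to 4 with no filter. The share of all genes called under that setting is not given, so the rise cannot be set beside it. Nuclear mitochondrial genes called between the strains in control lungs rose from 12 to 22 of 242 without B6 BMS493 replicate 3. Over all genes the share called went from 16.9% to 19.7%. As a percentage of all read pairs the controls of the strains overlapped, and the mitochondrial share was 0.714 for B6 control lungs, 0.684 for B6 lungs exposed to BMS493, 0.943 for A/J control lungs and 0.771 for A/J lungs exposed to BMS493. Other than where stated, the cause was not tested.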
